A study of Drosophila melanogaster with 9 samples.

Results

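The 10 genes described here were *drpr*, *Ced-6*, *NimC4*, *crq*, *NimC1*, *eater*, *Sr-CI*, *He*, *Hml* and *PPO1*, genes of engulfment and of blood cells (hemocytes), taken from the 11982 genes that the arrays name. They were chosen with earlier results of these data known and were found by gene symbol. Each of the 10 was read by 1 probe set. RNA was prepared from the whole central nervous system (CNS) of 10 to 15 wandering *Drosophila melanogaster* larvae of the third instar per sample, raised at 25 °C, and hybridised to Affymetrix Drosophila Genome 2.0 arrays. The 3 control samples carried the driver alone (*repoGal4/+*), 3 samples expressed an activated form of the FGF receptor Heartless (*repoGal4>UAS-Htl[ACT]*) and 3 overexpressed the insulin receptor (*repoGal4>UAS-InR*). All 9 samples therefore carried *repoGal4*, which drives expression in glia, and the *Htl[ACT]* and *InR* tissue was made to be enriched in glia. Samples were prepared in triplicate, with nothing further said of separate dissections, so that p-values measure the spread between these samples. The values were MAS5 signals, a linear intensity per probe set that the authors scaled to a common level on every array.

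Glia and hemocytes are the cells that clear dying cells and debris in the fly. In both, the transmembrane receptor Draper recognises the corpse and signals through the adaptor Ced-6 and the tyrosine kinase Shark to the actin cytoskeleton, and the taken-up material is broken down in phagosomes that fuse with lysosomes. Glia use this pathway to clear neuronal debris and to prune axons during metamorphosis. Hemocytes circulate in the larval blood. Most are plasmatocytes, which are macrophages carrying receptors of the Nimrod and scavenger families, while crystal cells hold prophenoloxidases for melanisation and lamellocytes are made after wasp infestation. Hemocytes lie outside the blood-brain barrier, and can adhere to the surface of tissues. A signal of whole CNS tissue sums over all of these cells, and fewer cells of a type cannot be told apart from less RNA per cell.

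The labels were checked first on the driver's own gene and on the transgenes. The glial gene *repo* had a signal of 3350 ± 260 (SD, n = 3) in control, 8365 ± 19.2 with *Htl[ACT]* and 5628 ± 248 with *InR*. *htl* rose by 2.72 on the log2 scale in *Htl[ACT]* tissue, from 297.4 ± 39 to 1974 ± 341. The *InR* probe set did not rise in *InR* tissue, where it had 854 ± 106 against 1003 ± 173 in control (log2 fold change -0.23, limma, adjusted p = 0.384), and whether it lies within the transgene was not tested. Over 6 glial genes the summed signal was 17810 to 19280 in control, 58800 to 65390 with *Htl[ACT]* and 33300 to 33860 with *InR*. Of these 6, 5 were called higher with *Htl[ACT]* and 2 with *InR*, *repo* and *moody*. *moody*, a gene of blood-brain barrier glia, made up most of the *InR* sum's excess, with 2765 ± 390 in control and 13820 ± 848 with *InR*, whereas *wrapper* had 3286 ± 96.6 and 3403 ± 401 and *alrm* 3366 ± 336 and 3098 ± 487. Over 5 neuronal genes it was 12040 to 12850, 5837 to 7583 and 8745 to 9389. The 3 larval fat body genes *Lsp2*, *Fbp1* and *Fbp2* stood apart on 3 arrays, and *Lsp2* had signals of 235.9, 2858 and 302.7 on control arrays 1 to 3, 305.1, 213.1 and 515.8 on *Htl[ACT]* arrays, and 483.7, 7047 and 6645 on *InR* arrays. Over 5 fat body genes, none at 0, the summed signal was 6058 to 13320 in control, 13660 to 14850 with *Htl[ACT]* and 8324 to 27820 with *InR*. The higher sum with *Htl[ACT]* was that of *apolpp* (5809 ± 509 in control and 13180 ± 743 with *Htl[ACT]*), and the other 4 had log2 fold changes below 0 there (median of the 5, -0.87). Control 2, *InR* 2 and *InR* 3 were left out in turn and together for each count of the 10 genes. Over all 8552 features tested, the median log2 fold change over control was -0.15 for *Htl[ACT]* and -0.09 for *InR*. Between these tissues it was -0.08, and changes are to be read against these medians.

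The 10 genes divided by how their signals ran over the 9 arrays, as the plot of signals by array shows. *drpr* and *Ced-6* had high signals on every array and were highest in *Htl[ACT]* tissue. The hemocyte markers *He*, *Hml*, *PPO1*, *NimC1*, *eater* and *Sr-CI* had low signals in control tissue and their highest signals in *InR* tissue. *crq* was called in no comparison, and *NimC4* was near background throughout. Genes that changed by 1.5-fold or more with a limma p no higher than 0.05 after Benjamini-Hochberg adjustment were called, in a fit over the 8552 features with a mean signal of at least 35.1. Of the 10 genes, 6 entered this test. *NimC1*, *eater*, *Sr-CI* and *NimC4* were under the limit, and their fold changes and adjusted p come from the same fit without the limit, over 17104 features. None of these 4 was called in that fit, in which 6.51% of features were higher and 8.92% lower in *Htl[ACT]* against control, 4.21% and 2.03% in *InR* against control, and 2.31% and 2.14% between the tissues.

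**Figure D1:**
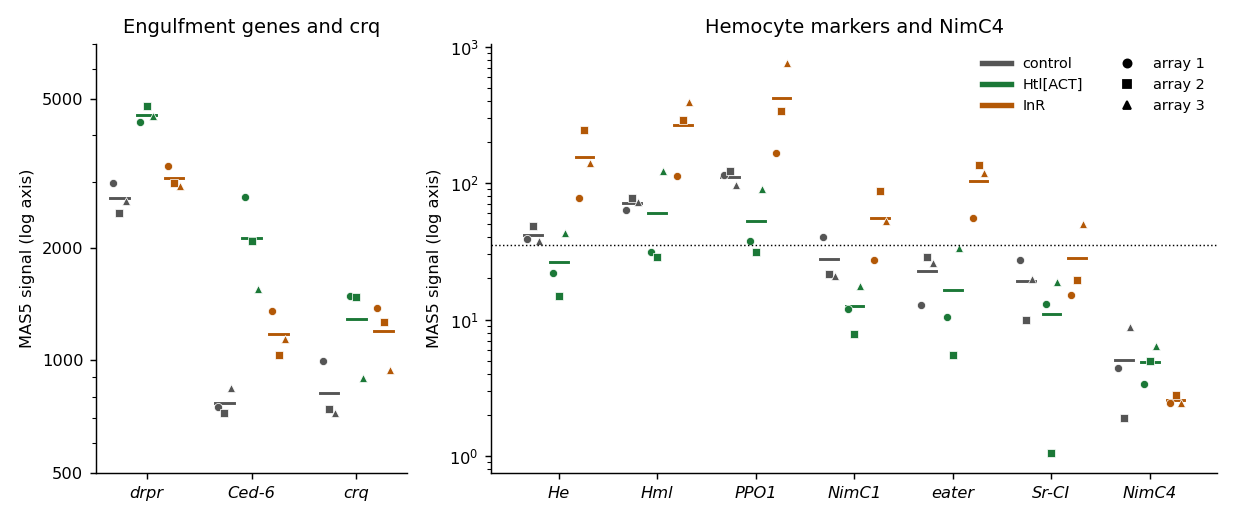
MAS5 signal (log axis) of the 10 genes on each of the 9 arrays, with 1 point per array, its shape giving the replicate number, and a bar at the mean of each group of 3 arrays. The dotted line is the lowest mean signal tested, 35.1. All *Htl[ACT]* points of *drpr* and *Ced-6* lie above the control points, and the *Htl[ACT]* 3 points of the hemocyte markers lie above those of *Htl[ACT]* 1 and 2.

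In *Htl[ACT]* tissue both glial engulfment genes rose. *drpr*, the engulfment receptor, had signals of 2981, 2478 and 2668 on control arrays 1 to 3 and 4324, 4793 and 4487 on *Htl[ACT]* arrays. The groups did not overlap, and the lowest *Htl[ACT]* array was well above the highest control array. The mean was 4535 ± 238 (SD, n = 3) against 2709 ± 254, a log2 fold change of 0.75 with a standard error of 0.0918 (limma, adjusted p = 0.000326).

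*Ced-6*, the phosphotyrosine-binding adaptor that binds the intracellular domain of Draper, rose further. Its signals were 749.9, 720.7 and 841.8 in control and 2724, 2083 and 1549 in *Htl[ACT]* tissue. Every *Htl[ACT]* array was above every control array, with a wide spread among the former (means 2119 ± 588 and 770.8 ± 63.2, n = 3 each). The log2 fold change was 1.42 with a standard error of 0.198 (limma, adjusted p = 0.000573). These were the 2 of the 6 tested genes called higher, and none was called lower, beside 13.0% of all tested features called higher and 19.2% called lower, and every array was higher for 14.7% of the 17104 features. The calls of both genes held in all 22 alternatives, with log2 fold changes of 0.67 to 0.92 for *drpr* and 1.22 to 1.63 for *Ced-6*. The summed signal of the glial genes moved in the same direction, and its part in the result was not tested.

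Of these 2 genes *Ced-6* alone was called in *InR* tissue. *drpr* had signals of 3309, 2967 and 2926, overlapping the control arrays, with a mean of 3067 ± 210 (log2 fold change 0.18, limma, adjusted p = 0.157). *Ced-6* had 1356, 1030 and 1140, all above the control arrays, with a mean of 1175 ± 165. It was called higher by 0.60 on the log2 scale (standard error 0.198, limma, adjusted p = 0.0449), just past both limits. This call did not hold in 12 of 22 alternatives, in which the log2 fold change stayed between 0.49 and 0.77. It was lost when control 1, 2 or 3, *Htl[ACT]* 2 or any of the *InR* arrays was left out, with adjusted p of 0.0608 to 0.129.

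Compared directly, *Htl[ACT]* arrays were above every *InR* array for both genes, as for 10.3% of the 17104 features. *Ced-6* was higher with *Htl[ACT]* by 0.82 on the log2 scale (limma, adjusted p = 0.0201), and without *InR* 2 or *InR* 3 the adjusted p was 0.0666 and 0.056, and without the signal limit 0.0857. *drpr* was higher by 0.56 with an adjusted p of 0.00399 in limma, a fold change of 1.48 that lay just under the limit of 1.5 and was past it without *Htl[ACT]* 1 or *InR* 1 (0.60 and 0.62 on the log2 scale). By its means *drpr* was highest with *Htl[ACT]*, the step from *InR* not being called, and *InR* and control did not differ beyond their spread. *Ced-6* ran *Htl[ACT]* above *InR* above control, and both of these steps lost their call in some alternatives.

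The other engulfment receptors gave no call. *crq* encodes Croquemort, a CD36-like scavenger receptor by which macrophages take up apoptotic cells. Its signals were 993.8, 739.7 and 722.2 in control, 1489, 1479 and 896.4 with *Htl[ACT]* and 1377, 1265 and 939 with *InR*. In each genotype array 3 fell among the control values, so that the groups overlapped. The log2 fold change was 0.63 in *Htl[ACT]* tissue (limma, adjusted p = 0.0509) and 0.54 in *InR* tissue (adjusted p = 0.111). *Htl[ACT]* and *InR* tissue differed by 0.09 with a standard error of 0.238, a sign that turned when *Htl[ACT]* 1, *Htl[ACT]* 2 or *InR* 3 was left out (-0.033, -0.028 and -0.073). *crq* was called higher with *Htl[ACT]* in 9 of the alternatives, among them quantile normalisation (0.71, adjusted p = 0.0331), median centring (0.81, adjusted p = 0.015) and the fits without control 1, *Htl[ACT]* 3 or *InR* 3 (adjusted p = 0.0384, 0.00916 and 0.0454).

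*NimC4*, also called *simu*, is a Nimrod receptor that binds apoptotic cells upstream of Draper in the embryo. Its probe set had signals of 1.883 to 8.878 in control, 3.361 to 6.406 with *Htl[ACT]* and 2.423 to 2.808 with *InR*, within the lowest 30.3% of each array. At this signal no difference from control was detectable (log2 fold changes 0.17 and -0.72, limma without the limit, adjusted p = 0.878 and 0.496).

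Of the 6 hemocyte markers, *He* and *PPO1* were called higher in *InR* tissue in the fit with the signal limit and not in that without it, and the fitted changes of the other 4 were also above 0 without passing the test. *He* encodes Hemese, a surface glycoprotein of larval hemocytes. Its signals were 39.2, 48.32 and 37.72 in control, 21.98, 14.77 and 42.76 with *Htl[ACT]* and 77.79, 246.3 and 141.4 with *InR*. All *InR* arrays were above all others, while *Htl[ACT]* 3 lay among the control arrays and *Htl[ACT]* 1 and 2 below them. *He* was higher by 1.75 on the log2 scale in *InR* tissue (standard error 0.471, limma, adjusted p = 0.0221). It passed the signal limit of 35.1 through the *InR* arrays, the mean of its other 6 arrays being 31.6, and without the limit the adjusted p was 0.0822, so that the call was lost. In *Htl[ACT]* tissue the log2 fold change was -0.79 (adjusted p = 0.186).

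*PPO1*, a prophenoloxidase of crystal cells, had signals of 114, 122.5 and 96.61 in control, 37.79, 31.3 and 90.5 with *Htl[ACT]* and 166.9, 340.3 and 753.9 with *InR*. None of the groups overlapped, and *InR* 3 had more than any other array. *PPO1* was higher by 1.66 on the log2 scale in *InR* tissue (standard error 0.56, limma, adjusted p = 0.0485, and 0.145 without the signal limit). Its log2 fold change in *Htl[ACT]* tissue was -1.22 (adjusted p = 0.0954), which was called lower (-1.68, adjusted p = 0.0356) when *Htl[ACT]* 3 was left out, and also (adjusted p = 0.0454) without *InR* 3.

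*Hml* encodes Hemolectin, a clotting protein made by plasmatocytes. Its signals were 63.36, 77.7 and 72.57 in control, 31.15, 28.53 and 122.4 with *Htl[ACT]* and 113.7, 290.6 and 390.2 with *InR*. Every *InR* array was above every control array, and *Htl[ACT]* 3 was above *InR* 1. The log2 fold change in *InR* tissue was 1.72 with a standard error of 0.614 (limma, adjusted p = 0.0583). With the replicate number as a block, which matches the arrays of all 3 groups by number, *Hml* was called higher (limma, adjusted p = 0.0304). It was also called higher without *Htl[ACT]* 3 or *InR* 1 (adjusted p = 0.0185 and 0.0293). In *Htl[ACT]* tissue the log2 fold change was -0.57 (adjusted p = 0.453).

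The remaining 3 markers had signals near background. *NimC1*, a plasmatocyte receptor for bacteria, had 40.58, 21.66 and 20.94 in control, 11.93, 7.858 and 17.62 with *Htl[ACT]* and 27.16, 87.25 and 52.4 with *InR*. *eater*, a Nimrod receptor for bacteria that also holds plasmatocytes in place, had 12.81, 28.58 and 26.14, then 10.52, 5.53 and 33.25, then 55.46, 136 and 119.5. *NimC1* was below all control arrays on every *Htl[ACT]* array, and *eater* was above all control arrays on every *InR* array. *Sr-CI*, a class C scavenger receptor, had 27.41, 10 and 19.86 in control, 13.09, 1.043 and 18.95 with *Htl[ACT]* and 15.14, 19.37 and 50.06 with *InR*, with overlapping groups throughout. In *InR* tissue the log2 fold changes were 0.92 for *NimC1*, 2.19 for *eater* and 0.48 for *Sr-CI*, and none was called (limma without the limit, adjusted p = 0.341, 0.109 and 0.863). The values for *Htl[ACT]* were -1.16, -0.77 and -1.47 (adjusted p = 0.17, 0.537 and 0.447). Every *Htl[ACT]* array was below every control array for *PPO1* and *NimC1*, 2 of the 6 markers, beside 23.2% of the 17104 features. The sign of *Sr-CI* in *InR* tissue rested on *InR* 3, without which it was -0.039.

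**Figure D2:**
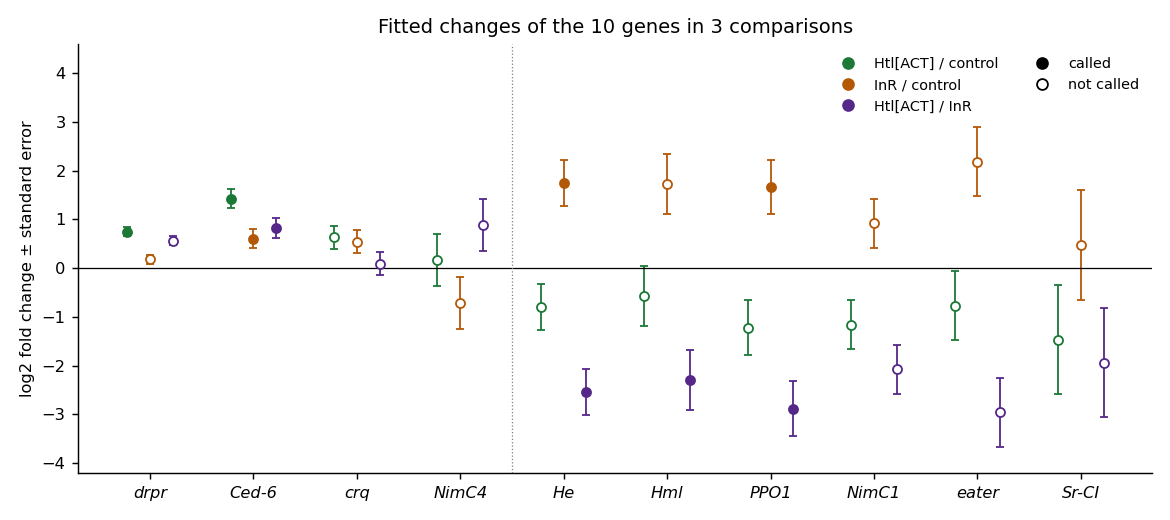
Fitted log2 fold change (limma, bars of 1 standard error) of the 10 genes, for both tissues over control and for *Htl[ACT]* over *InR*. Filled points were called and open points were not, and the 4 genes under the signal limit are from the fit without it. *Ced-6* was called in all 3 comparisons, and the 6 hemocyte markers lie above 0 for *InR* over control and below 0 in both others.

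In all, 3 of the 6 tested genes were called higher in *InR* tissue (*Ced-6*, *He* and *PPO1*) and none lower, where 9.24% of all tested features were called higher and 6.57% lower. 4 of the 6 hemocyte markers did not overlap with control, each higher, beside 13.9% of the 17104 features. These calls rested on the limit and on single arrays: the count of 3, of which *He* was tested through its *InR* arrays, became 0 without the signal limit, 0 without control 1, control 3, *InR* 2 or *InR* 3, and 1 without control 2 or *Htl[ACT]* 2, while the log2 fold changes of *He* and *PPO1* stayed above 0. The call of *PPO1* held in 7 of 21 alternatives and that of *He* in 13 of 21. *PPO1* was also not called without *Htl[ACT]* 1 (limma, adjusted p = 0.0619). Nor was it called with the 6 arrays of the comparison alone (limma, adjusted p = 0.0501) or the mean of all probe sets (0.053). Without control 2 and *InR* 2 together the count was 0, with log2 fold changes of 1.45 for *He* (adjusted p = 0.106) and 1.76 for *PPO1* (adjusted p = 0.171). Both comparisons used the same 3 control arrays. *Lsp2*, *Fbp1* and *Fbp2* were high on *InR* 2 and *InR* 3, as given above, and their part in the result was not tested.

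Set directly against *InR* tissue, *Htl[ACT]* tissue had lower signals of *He*, *Hml* and *PPO1*. For *PPO1* the log2 fold change was -2.88 (standard error 0.56, limma, adjusted p = 0.00849, and 0.0414 without the signal limit) and for *He* -2.54 (adjusted p = 0.00716, and 0.0366 without the limit). On 2 of the 3 *Htl[ACT]* arrays, 1 and 2, the signals of *He* and *Hml* were under 35.1, near background. That of *PPO1* was under it on *Htl[ACT]* 2 (31.3) and close to it on *Htl[ACT]* 1 (37.79). The sizes of all 3 differences are to be read with that. *Hml* differed by -2.30 on the log2 scale (adjusted p = 0.0293, and 0.105 without the limit, where it was not called), although *Htl[ACT]* 3 overlapped with the *InR* arrays, and this call was lost without *Htl[ACT]* 1, *Htl[ACT]* 2, *InR* 2 or *InR* 3 (adjusted p of 0.0782 to 0.0947). Of the 6 tested genes these 3 were called lower and *Ced-6* higher, beside 6.45% and 5.43% of all tested features. *He* was among the tested genes only through its *InR* arrays, as given above. The count of 4 was 2 without the signal limit, 2 without *InR* 2 or *InR* 3, 1 without control 2 and *InR* 2, and 0 when *InR* 3 was left out with them, which left 1 *InR* array. *NimC1*, *eater* and *Sr-CI* had log2 fold changes of -2.08, -2.96 and -1.94 (limma without the limit, adjusted p = 0.0694, 0.0639 and 0.403), and for *NimC1* and *eater* every *Htl[ACT]* array was lower, beside 16.9% of the 17104 features. Without *Htl[ACT]* 3, *eater* was called lower (-3.66, adjusted p = 0.0359).

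The order of the arrays within a genotype was shared by the markers with *Htl[ACT]* and in part with *InR*, but not in control. *Htl[ACT]* 3 had the highest signal of its group for all 6 markers and *Htl[ACT]* 2 the lowest for all 6. *InR* 1 had the lowest of its group for all 6, while *InR* 2 and *InR* 3 each had the highest for 3. Control 1 had the highest of its group for 2 markers and control 2 for 4. On *Htl[ACT]* 1, 5 markers were below all control arrays, on *Htl[ACT]* 2 all 6 were, and on *Htl[ACT]* 3, 2 were below and 2 above. The summed signal of the 6 markers was 273.8 to 308.7 in control, then 126.5, 89.04 and 325.5 on *Htl[ACT]* arrays 1 to 3, and 456.1, 1120 and 1508 on *InR* arrays 1 to 3. These sums are mostly *PPO1* and *Hml*. Between control arrays the highest over the lowest signal was 1.23-fold to 1.28-fold for *He*, *Hml* and *PPO1* but 1.94-fold to 2.74-fold for *NimC1*, *eater* and *Sr-CI*, against 2.24-fold to 18.2-fold between *Htl[ACT]* and 2.45-fold to 4.52-fold between *InR* arrays for the 6. The highest over the lowest *Htl[ACT]* signal was 1.11-fold for *drpr* and 1.76-fold for *Ced-6*.

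The 2 engulfment genes were set beside the markers array by array. The median log2 deviation of these 2 genes from the control mean was 1.25, 1.13 and 0.87 on *Htl[ACT]* arrays 1 to 3 and 0.56, 0.28 and 0.34 on *InR* arrays. That of the 6 hemocyte markers was -1.08, -1.78 and 0.08, then 0.64, 1.88 and 2.11. *Htl[ACT]* 3 was the lowest of its group in the former median and the highest in the latter. The 3 fat body genes were at 2.28 on control 2, where the hemocyte markers were at 0.14, and at -0.58, 3.58 and 2.41 on the *InR* arrays, relative to a control mean that includes the high control 2. Their part in the marker signals was not tested.

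**Figure D3:**
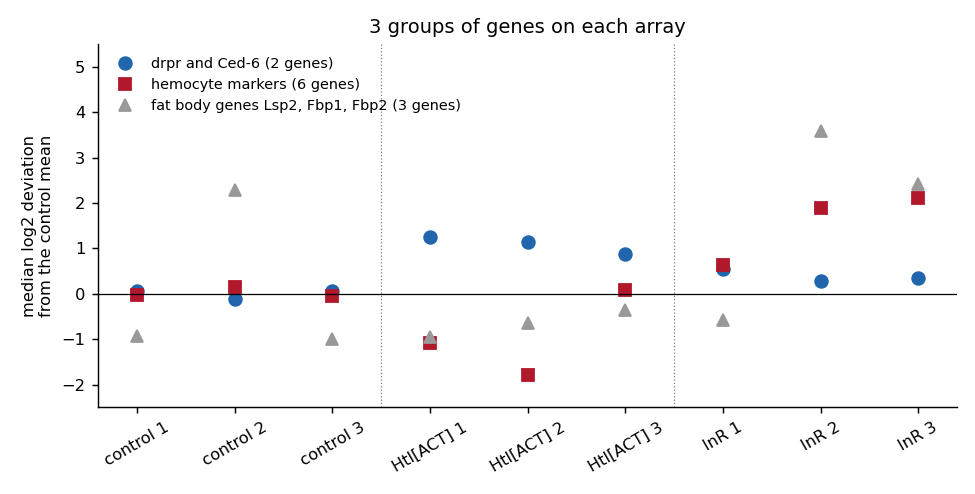
Median log2 deviation from the control mean on each of the 9 arrays, for *drpr* and *Ced-6* (circles), the 6 hemocyte markers (squares) and 3 larval fat body genes (triangles). The circles are highest on the *Htl[ACT]* arrays, from 0.87 to 1.25, and the squares on *InR* 2 and *InR* 3, at 1.88 and 2.11, while the triangle is also high on control 2.

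As a description over the 9 arrays, log2 signals of the hemocyte markers correlated with one another at Pearson r of 0.64 to 0.96 over 15 pairs, and *drpr* correlated with them at -0.65 to -0.47 and *Ced-6* at -0.60 to -0.38. These points share the arrays and the 3 genotypes. The tested genes most like *PPO1* were *PPO2*, the second prophenoloxidase of crystal cells (r = 0.99), *Zasp52* (0.96), *Hml* (0.96), *Glt* (0.95) and *NimB4* (0.94). *Glt* and *NimB4* were among the tested genes only through their high *InR* arrays, the means of their other 6 arrays being 25.6 and 27.9. Their place among these genes is therefore no support for a shared pattern. Those most like *drpr* were *CG32407*, *Nagk*, *CG9328*, *Synd* and *RhoL*, each at 0.98. *CG33523* was most like *Ced-6* (0.99), followed by *Paics*, *Rop*, *Nfs1* and *Sec61alpha* at 0.97 to 0.98.

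The wider Draper pathway was followed over a list of 21 genes, of which 15 were on a probe set and 14 were tested. In *Htl[ACT]* tissue 6 rose and 1 fell, beside 13.0% and 19.2% of all tested features, and the 14 had a median of 0.40, against -0.15. Besides *drpr* and *Ced-6* these were the kinase gene *Shark*, *orion*, which encodes a chemokine-like protein required for astrocytes to enter and prune mushroom body axons, *CaBP1*, whose product bridges dying cells and phagocytes, and *Ced-12*, which encodes the ELMO homologue that activates Rac. *Shark* had signals of 374.4, 360.2 and 382 in control, 685.4, 770 and 689.7 with *Htl[ACT]* and 596.5, 600.5 and 535.3 with *InR*. Its arrays fell into 3 groups without overlap, and it rose in both tissues, by 0.94 (limma, adjusted p = 5.64e-05) and 0.63 (adjusted p = 0.00089) on the log2 scale, the latter under the fold limit with median centring (0.53).

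*orion* had signals of 3225, 2542 and 2477 in control, 6580, 6471 and 5981 with *Htl[ACT]* and 3511, 3254 and 3649 with *InR*. It rose by 1.22 on the log2 scale in *Htl[ACT]* tissue, and in *InR* tissue the log2 fold change of 0.35 was under the fold limit. *CaBP1* rose by 0.67 and *Ced-12* by 0.59 in *Htl[ACT]* tissue, and *Sos*, a guanine nucleotide exchange factor of Ras, fell by 0.79, the last 2 being named after their values were seen. The *CaBP1* change was under the fold limit with quantile normalisation (0.55). The *Ced-12* change was under the fold limit without control 2, control 3 or *Htl[ACT]* 2 (0.54, 0.54 and 0.53).

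In *InR* tissue 3 of the 14 genes rose and none fell, beside 9.24% and 6.57% of all tested features, with a median of 0.31 against -0.09. They were *Ced-6*, *Shark* and *Pvr*, the PDGF/VEGF receptor used by hemocytes and, in adult glia, after axon injury. *Pvr* had signals of 131.4, 100.6 and 100.2 in control, 118, 90.38 and 120.6 with *Htl[ACT]* and 164.3, 193.4 and 221.9 with *InR*. It was above both other groups on every *InR* array and rose by 0.80 on the log2 scale (limma, adjusted p = 0.00792), while its *Htl[ACT]* arrays overlapped with control. Between the tissues, *orion* was higher in *Htl[ACT]* by 0.87, *Ced-6* by 0.82, and *Pvr* was lower (log2 fold change -0.82). The *Pvr* difference was not called with median centring (-0.54, adjusted p = 0.0592) or without the signal limit (adjusted p = 0.055). *Src42A*, *Src64B*, *mbc*, *Rac1*, *Rac2* and *Mmp1* of the list are not analysed here.

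**Figure D4:**
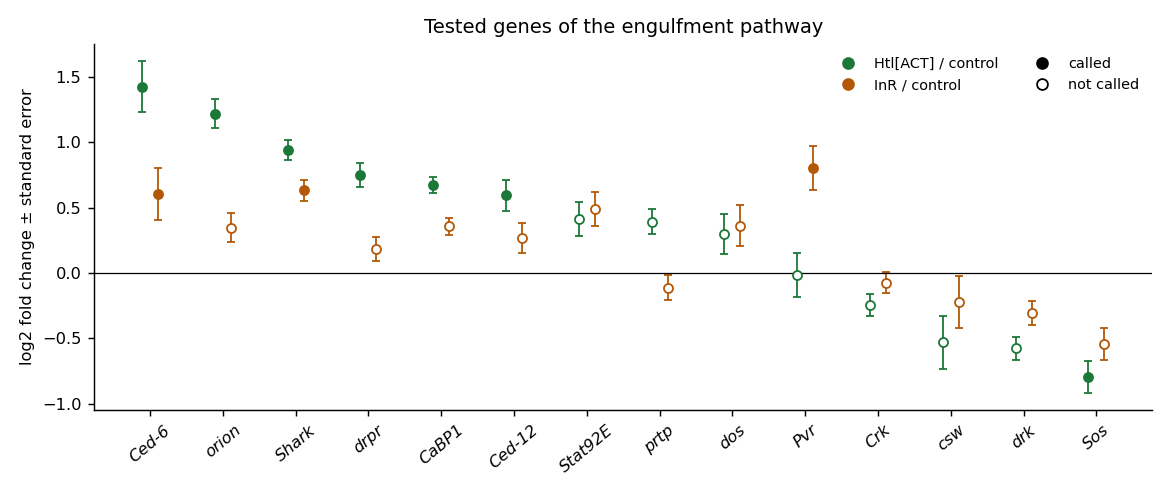
Fitted log2 fold change (limma, bars of 1 standard error) of the 14 tested genes of the engulfment list in *Htl[ACT]* and in *InR* tissue against control, ordered by the change in *Htl[ACT]* tissue. Filled points were called. *Ced-6*, *orion*, *Shark*, *drpr*, *CaBP1* and *Ced-12* are called higher in *Htl[ACT]* tissue and *Sos* lower, and *Ced-6*, *Shark* and *Pvr* are called higher in *InR* tissue.

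Breakdown of taken-up material was followed by 11 tested genes of phagosome and lysosome maturation, with *Rab5* and *Rab7* not analysed here. With *Htl[ACT]* 2 rose and 1 fell, beside 13.0% and 19.2% of all tested features, and in *InR* tissue 1 rose and none fell, beside 9.24% and 6.57%. The medians were -0.15 and -0.030, against -0.15 and -0.09 over all tested features, so that the list as a whole stood near the background, and its called genes are given as single values. *spin*, which encodes the lysosomal transporter Spinster, rose by 1.01 in *Htl[ACT]* and by 0.90 in *InR* tissue (limma, adjusted p = 3.2e-05 and 0.000117). Its signals were 2782 to 3089 in control, 5638 to 6354 with *Htl[ACT]* and 5375 to 5612 with *InR*, so that both tissues stood clear of control. *Lamp1*, a lysosomal membrane protein gene, rose by 0.72 in *Htl[ACT]* tissue, and *Rab2*, which encodes a small GTPase of membrane traffic, fell by 0.73. *Lamp1* was under the fold limit with quantile normalisation (0.56), and *Rab2* was not called with it (-0.54, adjusted p = 0.0572), with median centring (-0.56) or without the signal limit (adjusted p = 0.0544).

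*drpr*, *NimC1*, *NimC4* and *eater* belong to the Nimrod family, whose members carry a type of EGF-like repeat. In the gene table used (release 6 of the genome), *He*, *NimC1*, *NimC2*, *NimC3* and *NimC4* stand along chromosome arm 2L within 17 consecutive entries, *He* first, *NimC1* second and *NimC4* last, with unrelated genes such as *Cyp28a5*, *rk* and *nAChRalpha5* between them. On these arrays *He* was highest in *InR* tissue. *NimC1* had its highest mean there, but it was under the signal limit and not called, and *InR* 1 lay below control 1. *NimC2* and *NimC3* were also under the limit, with overlapping groups in every comparison. *NimC4* was near background in all groups. Of 12 family members on probe sets, 4 were tested, and 8 were under the signal limit. In *InR* tissue 2 of the 4 were called higher and 1 lower, beside 9.24% and 6.57% of all tested features, but *NimB4*, 1 of the former, passed the signal limit through its *InR* arrays. In *Htl[ACT]* tissue *drpr* alone rose, beside 13.0%.

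*NimB2*, a secreted member, had signals of 45.59, 51.98 and 33.07 in control, 100.6, 34.01 and 56.24 with *Htl[ACT]* and 235.4, 281.9 and 345.1 with *InR*. The *InR* arrays were all far above the others and close to one another, and *NimB2* rose by 2.73 on the log2 scale (standard error 0.367, limma, adjusted p = 0.00122). *NimB4*, a secreted member that acts in phagosome maturation in macrophages, had 43.21, 36.71 and 22.9 in control, 20.88, 18.05 and 34.41 with *Htl[ACT]* and 50.27, 132.6 and 125.1 with *InR*. The mean of its 6 control and *Htl[ACT]* arrays was 27.9, under the signal limit. It was higher by 1.51 in *InR* tissue (limma, adjusted p = 0.0262), with *InR* 1 again the lowest of its group, and the call was lost without the limit (adjusted p = 0.0929) and without control 2, control 3, *InR* 2 or *InR* 3 (adjusted p of 0.0563 to 0.0869).

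*NimA* ran the other way from the hemocyte members. Its signals were 832.7, 471.2 and 361.8 in control, 855.9, 1499 and 540 with *Htl[ACT]* and 204.5, 210.8 and 201.4 with *InR*. The *InR* arrays lay close together and below all others, whereas the spread in control and *Htl[ACT]* tissue was wide. *NimA* fell by 1.34 on the log2 scale in *InR* tissue (limma, adjusted p = 0.0301), a call lost without control 1, control 2 or any *InR* array (adjusted p of 0.0613 to 0.0828) and without the signal limit (0.103). Its log2 fold change with *Htl[ACT]* was 0.76 (adjusted p = 0.132), and *NimA* was called higher there without control 1 or *Htl[ACT]* 3 (1.10 and 1.12, adjusted p = 0.0438 and 0.0364). Between the tissues the log2 fold change was -2.30 for *NimB2*, -2.00 for *NimB4* and 2.11 for *NimA*, each called, *NimB4* not without the signal limit (adjusted p = 0.0561).

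**Figure D5:**
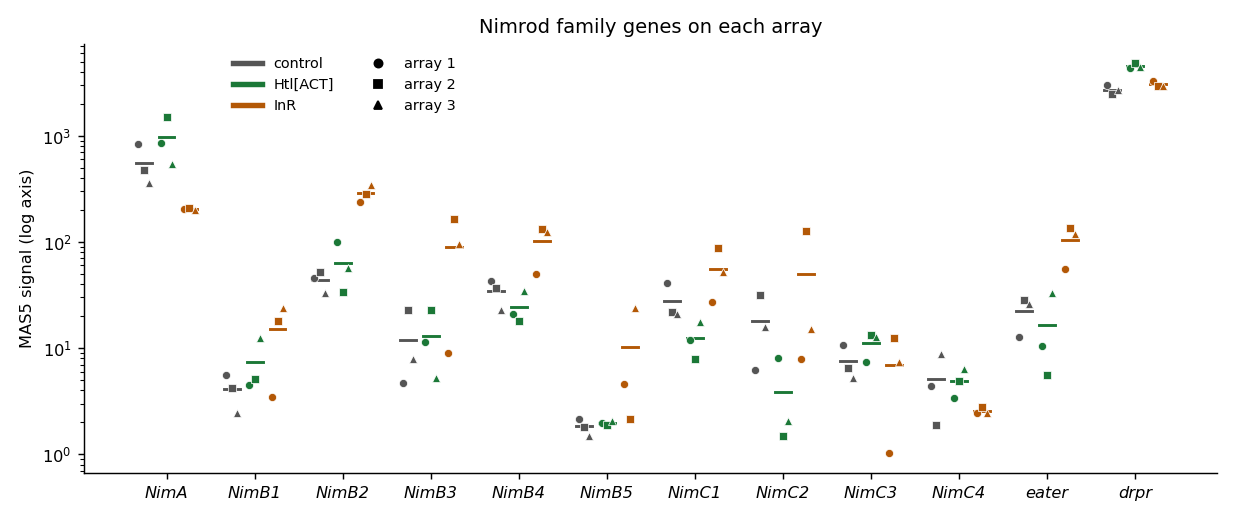
MAS5 signal (log axis) of the 12 Nimrod family genes on each of the 9 arrays, with 1 point per array and a bar at the mean of each group of 3. *NimB2*, *NimB4* and *eater* are highest on the *InR* arrays, *NimA* is lowest there, at 201.4 to 210.8, and *drpr* is highest on the *Htl[ACT]* arrays. Signals of different probe sets are not comparable with each other.

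The CD36-like and class C scavenger receptors included *crq* and *Sr-CI*, and 4 of 11 were tested. *pes* and *santa-maria* rose in both tissues and none fell, beside 13.0% of all tested features called higher with *Htl[ACT]* and 9.24% with *InR*, the median of the 4 being 0.999 and 0.61. *pes*, which encodes the CD36-like receptor Peste, had signals of 143.7 to 194.1 in control, 337.4 to 517.6 with *Htl[ACT]* and 405.1 to 749.9 with *InR*. It rose by 1.37 in *Htl[ACT]* and by 1.80 in *InR* tissue (limma, adjusted p = 0.00214 and 0.00145). *santa-maria*, which encodes a CD36-like protein of carotenoid uptake and has been placed in neurons and glia, had 1462 to 1698 in control, 3296 to 5061 with *Htl[ACT]* and 2240 to 2716 with *InR*. It rose by 1.37 and 0.67 (adjusted p = 0.000243 and 0.0131), the latter not called with median centring (0.56) or without the signal limit (adjusted p = 0.0618). It exceeded its *InR* level by 0.70 in *Htl[ACT]* tissue, a call lost without *Htl[ACT]* 2 or *InR* 2 (0.53 and 0.63) and without the limit (adjusted p = 0.0745). *emp*, another CD36-like gene, was lower with *Htl[ACT]* than with *InR* (log2 fold change -0.61), just past the fold limit. It was under it with median centring (-0.33, adjusted p = 0.0818) and quantile normalisation (-0.46), and without *Htl[ACT]* 2 or *InR* 1 (-0.56 and -0.58).

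Other markers of blood cells were set beside the members. Of 11 plasmatocyte genes, which include 6 of the members, 7 were tested. In *InR* tissue 2 were called higher and none lower, beside 9.24% and 6.57% of all tested features, and both of these, *He* and *NimB4*, passed the signal limit through their *InR* arrays. In *Htl[ACT]* tissue 1 fell and none rose, beside 19.2% and 13.0%, namely *Pxn*, which encodes the extracellular matrix enzyme Peroxidasin. *Pxn* had signals of 406.4, 355.8 and 325.1 in control, 121.3, 225.3 and 251.5 with *Htl[ACT]* and 420.5, 456.1 and 579.7 with *InR*, with no overlap between groups. It fell by 0.92 in *Htl[ACT]* tissue (limma, adjusted p = 0.0174), a call lost without control 1 (adjusted p = 0.0554), without the signal limit (0.0631) and, under the fold limit at -0.50, when its 2 probe sets were averaged. Between the tissues the log2 fold change was -1.34, which turned to 0.49 (adjusted p = 0.0456) with that average. The direct comparison called 4 plasmatocyte genes lower in *Htl[ACT]* tissue (*He*, *Hml*, *Pxn* and *NimB4*) and none higher, beside 6.45% and 5.43% of all tested features. Since *He* and *NimB4* were tested only through their high *InR* arrays, this count cannot be read against those shares. Without the signal limit *Hml* and *NimB4* were not called (limma, adjusted p = 0.105 and 0.0561).

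Of 4 genes on a list of crystal cell markers and prophenoloxidases 3 were tested. 1 of these, *PPO3*, is also on the lamellocyte list below and is counted in both. *PPO1* alone was called in *InR* tissue, beside 9.24% of all tested features called higher, where the median of the 3 was 1.34. *PPO2*, the other prophenoloxidase of these cells, had signals of 223.3, 218 and 211.1 in control, 102.4, 94.34 and 255.5 with *Htl[ACT]* and 313.1, 527.9 and 1011 with *InR*. The 3 *InR* arrays ran in the same order as for *PPO1*, and *Htl[ACT]* 3 was again above *Htl[ACT]* 1 and 2. *PPO2* had a log2 fold change of 1.34 in *InR* tissue (limma, adjusted p = 0.0575, and 0.0296 with the replicate block, where it was called) and was lower with *Htl[ACT]* than with *InR* (log2 fold change -2.03, adjusted p = 0.0181), a call lost without *Htl[ACT]* 1 or 2 (adjusted p = 0.0626 and 0.0503) and without the signal limit (0.0747). Of 4 tested lamellocyte genes, *cher*, which encodes filamin, rose by 1.16 in *InR* tissue (limma, adjusted p = 0.0233), beside 9.24% of all tested features called higher. The other 3 were not called. The *cher* call was lost without control 1, control 2, *InR* 2 or *InR* 3 (adjusted p of 0.0657 to 0.0708) and without the signal limit (0.0868). None of the 4 was called in *Htl[ACT]* tissue, beside 13.0% of all tested features called higher and 19.2% lower.

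None of the tested transcription factors of blood cells rose. Of 8 genes 5 were tested, and all 5 fell in *Htl[ACT]* tissue and 3 in *InR* tissue, beside 19.2% and 6.57% of all tested features, with medians of -1.24 and -0.67. *gcm* and *gcm2*, which specify glia and plasmatocytes in the embryo, fell by 1.35 and 1.38 in *Htl[ACT]* and by 0.67 and 0.69 in *InR* tissue. The *gcm2* call in *InR* tissue was lost without control 1, control 3, *InR* 1 or *InR* 3 (adjusted p of 0.0569 to 0.0674) and without the signal limit (0.0871). *kn*, a marker of the lymph gland signalling centre that is also expressed in neurons, fell by 1.24 and 0.71. Neither was called when its 2 probe sets were averaged (-0.53, adjusted p = 0.202, and -0.54, adjusted p = 0.231), and the latter was also lost without *InR* 3 (-0.55) or the signal limit (adjusted p = 0.0624). *ush*, a cofactor of GATA factors, fell by 0.87 in *Htl[ACT]* tissue, and *Antp*, a Hox gene named after its values were seen, by 0.84, a call lost without control 2, control 3, *Htl[ACT]* 1 or *Htl[ACT]* 2 (adjusted p of 0.056 to 0.0749), with median centring (0.0931) and without the signal limit (0.0787). The summed signal of neuronal genes was also lower in both tissues, and its part in the result was not tested.

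*srp*, which encodes the GATA factor Serpent of hemocytes and fat body, was under the signal limit and is named after its values were seen. Its signals were 1.098, 16.41 and 12.19 in control, 6.825, 15 and 12.48 with *Htl[ACT]* and 41.74, 88.79 and 44.29 with *InR*. All *InR* arrays were above all others, and the log2 fold change of 3.18 was not called (limma without the limit, adjusted p = 0.102).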

How the data were processed

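Total RNA of whole larval CNS tissue was hybridised to 9 arrays, 3 per genotype. Each sample came from 10 to 15 larvae, and cRNA was made from 500 ng of total RNA. The authors made the values with MAS5 in Affymetrix Expression Console (version not given in the sources used here). Each deposited value is a linear intensity, the MAS5 signal of a probe set, brought to a 2% trimmed mean of 500.0 per array, and the low ones lie near background. The authors' detection calls and SAM test were not used here. The number of arrays limits the precision.

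The arrays hold 18952 probe sets, of which 183 are controls and were not used. Through the platform annotation 13647 name 1 gene, 402 more than 1 and 4720 none, and 13544 of the first were found in the gene table (release 6). That table was used for names and the order of genes only, since the build of the array is not given in the sources used here. Where 1 of 1094 genes had several probe sets, the one brightest on average over the arrays, in log2, was taken. The brighter 8552 of 17104 features were tested on log2 signals with limma 3.58.1 (R 4.3.3), on 3 groups with 6 residual degrees of freedom. The limits for a call were 1.5-fold and 0.05 for p after Benjamini-Hochberg adjustment. The calculation was tested on simulated data. Tables and plots were made with Python 3.11.15, numpy 2.4.6, pandas 2.3.3 and matplotlib 3.10.9.

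The 10 genes, the lists and the rule for genes named were chosen with earlier results of these data known. The rule took the 10 genes, up to 4 called genes per list and comparison by moderated t, the 5 genes most correlated with *drpr*, *Ced-6* and the brightest hemocyte marker (*PPO1*), and *repo*, *htl* and *InR*. The labels number the replicates. Over all tested features, the deviation of a control array from its group correlated with that of the *InR* array of the same number at 0.50, 0.37 and 0.23. All exceed 0.1, so these arrays were taken as paired, on the strength of the values alone. For *Htl[ACT]* and control the correlations were -0.040, -0.055 and 0.20 and for *Htl[ACT]* and *InR* -0.037, -0.17 and 0.38, so those were not. The main fit left this pairing out and had no block in any comparison. The fit with a block for the replicate number covered all 9 arrays, so that it also matched the *Htl[ACT]* arrays by number. The alternatives were quantile normalisation, median centring, no limit on signal, the brightest 5701 features, a pseudocount of 7.83, the 6 arrays of a comparison alone, limma's trend and robust options, a block for the replicate number, the false discovery rates of the methods, the mean of all probe sets, every probe set on its own, each of the 9 arrays left out, and the arrays high in fat body genes left out. For genes under the signal limit, the block, the scalings and the arrays left out were repeated without the limit, as alternatives chosen after seeing the data.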

Additional observations from a re-analysis of the deposited data

Results flagged for a closer look

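The effects of *Htl[ACT]* and *InR*, each over the same control arrays, were called different by the direct test in limma for the 15 genes below. They are the called ones of the 10 genes, and list genes that were named because they were called in this comparison. Their number is therefore no result. Over all tested features 5.43% were called higher and 6.45% lower. Genes named for their correlation, as context or as checks of the labels are left out. Each value is the log2 difference of the 2 effects, *Htl[ACT]* minus *InR*. Among the 10 genes it was 0.82 for *Ced-6*, -2.54 for *He*, -2.30 for *Hml* and -2.88 for *PPO1*. In the Draper pathway it was 0.87 for *orion* and -0.82 for *Pvr*. In the Nimrod family it was -2.30 for *NimB2*, 2.11 for *NimA* and -2.00 for *NimB4*. Among scavenger receptors it was -0.61 for *emp* and 0.70 for *santa-maria*. Among other blood cell genes it was -1.34 for *Pxn*, -2.03 for *PPO2*, -0.68 for *gcm* and -0.69 for *gcm2*. The *gcm2* difference was not called without *Htl[ACT]* 1, *Htl[ACT]* 3 or any *InR* array (adjusted p of 0.0527 to 0.0927), nor with the replicate block (adjusted p = 0.0518). With median centring the differences of *Pvr* (-0.54, adjusted p = 0.0592), *gcm* (-0.40, adjusted p = 0.056), *gcm2* (-0.41, adjusted p = 0.174) and *emp* (-0.33, adjusted p = 0.0818) were not called, and with quantile normalisation those of *gcm2* (-0.40, adjusted p = 0.186) and *emp* (-0.46, under the fold limit) were not. Averaging its 2 probe sets turned *Pxn* to 0.49. Without the signal limit *Ced-6*, *Hml*, *Pvr*, *NimB4*, *santa-maria*, *PPO2* and *gcm2* were not called (adjusted p of 0.055 to 0.115). Groups of 3 arrays were too small for a test of single outlying arrays.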

How the results depend on the processing

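The number of the 10 genes called depended on the settings. In *Htl[ACT]* against control it was 2, and 2 to 4 when 1 array was left out, 4 without *Htl[ACT]* 3 or *InR* 3. In *InR* against control it was 3, but 0 without the limit on signal, 1 among the brightest 5701 features, where 3 of the 10 genes were tested, and 0 at the false discovery rates of the methods. It was 0 without control 2 and *InR* 2, 0 when *InR* 3 was left out as well, and 0 to 4 when 1 array was left out. In *Htl[ACT]* against *InR* it was 4, but 2 without the limit and 1 among the brightest 5701. It was 1 without control 2 and *InR* 2, and 2 to 5 when 1 array was left out. The methods give no rate for this comparison, and at their rate for *Htl[ACT]* against control it was 0. A fit with 1 *InR* array assumes that it varies like the other groups. Fewer of the 10 genes among the brightest features is by construction, and the cause of the other changes was not tested.

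Over all alternatives of single fold changes of the 10 genes, 471 kept direction and side of the threshold, 22 gained a call, 54 lost it and 8 changed sign. Many alternatives leave the fold change itself as it is by construction, so that the 471 do not measure how firm a direction is. Among them are the signal limits, the block, the trend and robust options, the false discovery rates and the leaving out of an array of the third group. The sign changes were those of *crq* between the tissues (-0.033, -0.028 and -0.073 without *Htl[ACT]* 1, *Htl[ACT]* 2 and *InR* 3, in a range of -0.073 to 0.33 over the arrays left out, and -0.13 without control 2, *InR* 2 and *InR* 3), of *NimC4* in *Htl[ACT]* tissue (-0.40 without control 2, with or without *InR* 2, and -0.044 without *Htl[ACT]* 3) and of *Sr-CI* in *InR* tissue (-0.039 without *InR* 3). Of the other genes, *InR* between the tissues became 0.030 under median centring and *Pxn* 0.49 with the mean of all probe sets. With the replicate number as a block, *crq* was called in *Htl[ACT]* tissue (0.63, adjusted p = 0.0072), where the numbers do not pair the arrays. *Hml* and *PPO2* were called in *InR* tissue and *gcm2* was not called between the tissues, and the block changed no other call of a gene named.

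Median centring moved the median of all tested features from -0.15 to 0.02 in *Htl[ACT]* against control, from -0.09 to -0.20 in *InR* against control and from -0.08 to 0.20 between the tissues. The share of calls that were higher moved from 40.4% to 59.7%, from 58.4% to 41.5% and from 45.7% to 80.4%, and with quantile normalisation to 59.3% between the tissues and 50.1% in *Htl[ACT]* against control. Signals near background limit *NimC1*, *eater*, *Sr-CI* and *NimC4*.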
